A study of Arabidopsis thaliana with 4 samples.

Results

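The tiles described here are those of the array sets PD and TD, which are numbered apart from the long series of plates TA, TB and TC on the same tiling array. They were chosen by identifier alone: PD or TD, a plate number, a row from A to H and a column from 1 to 12, with a score on every array. There are 412 such tiles among 21716 scored tiles in all, 316 in PD and 96 in TD, and the rule uses no measured value, so no tile lies near a limit. PD fills plates PD01 and PD02 with 96 tiles each, PD03 with 95 and PD04 with 29. TD fills 1 plate, TD01, with 96 tiles. What the letters stand for, and which stretch of the genome a tile covers, are not given in the sources used here. Names and accessions of TAIR10.1 genes matched 0 of the 412 identifiers, so no gene, coordinate or sequence is given for a tile.

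Trimethylated lysine 9 of histone H3 (H3K9me3) was mapped in untreated Arabidopsis thaliana seedlings of the widely used ecotype Col-0, with H3K9me3-precipitated DNA and input DNA on the same 2-colour array. Per the labels, seedlings were grown for 10 days in liquid culture, under 16 h of light per day and at 22 °C. Both chromatin preparations, I and II, were hybridised as a dye-swap pair, so that 4 arrays form 1 group with no other genotype or treatment. Whole seedlings hold many cell types, and a score averages over all of them.

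H3K9me3 is a methylation mark on the tail of histone H3. In animals it marks condensed chromatin and is bound by heterochromatin proteins. In Arabidopsis most accounts place it over transcribed genes, while transposons carry H3K9me2. An array of this kind measures, tile by tile, how much of a sequence came down with the antibody compared with its amount in input chromatin.

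The 2 arrays of each dye-swap pair held the same deposited score at all 21716 tiles and were counted as 1 replicate, which leaves n = 2 preparations. Each score is given relative to its preparation's median over all scored tiles, in score units. The medians taken off were -1.09 in I and -1.35 in II. The log base of the score is unknown, and so is its direction: the sources used here do not say whether a high score stands for more immunoprecipitated DNA or less. "Higher" and "lower" refer to the score only. Whether the preparations came from separate cultures is not stated either, so p-values measure only the spread between them, which may be technical.

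Tiles of PD and TD scored mostly above the median of the array. PD had a median score of 0.30 in preparation I and of 0.29 in preparation II. In TD it was 0.43 in I and 0.48 in II. Set TB, the nearest of the long sets, had medians of 0.14 in I and 0.12 in II, TA of -0.09 in both, and TC of -0.15 in I and -0.23 in II. Both preparations thus put TD above PD, and PD above TB, TA and TC.

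**Figure D1:**
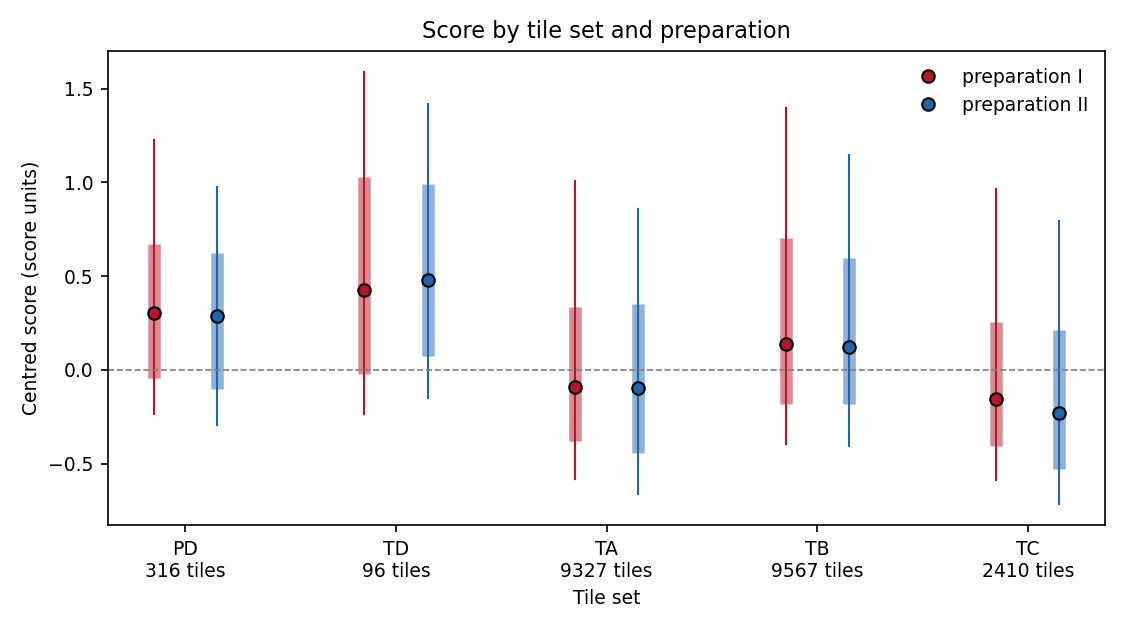
Centred score (y axis, score units) by tile set (x axis) in preparation I (red) and II (blue). Points are medians, thick bars run from the 25th to the 75th percentile and thin lines from the 10th to the 90th percentile across tiles. The medians of PD and TD lie between 0.29 and 0.48 and those of TA, TB and TC between -0.23 and 0.14.

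The median of PD lay above that of TA by 0.39 ± 0.012 (SD, n = 2), above that of TB by 0.17 ± 0.00081 and above that of TC by 0.49 ± 0.043. The median of TD lay above that of TA by 0.54 ± 0.038, above that of TB by 0.32 ± 0.050 and above that of TC by 0.64 ± 0.092. Every one of these 6 differences exceeded the spread between the preparations. That spread shows only how well the same tiles repeated and does not cover differences between plates. Medians of the TA, TB and TC plates with at least 80 scored tiles ran from -0.55 to 0.63. Without plate PD02, set apart after its values were seen, PD had medians of 0.14 in I and 0.12 in II, level with TB. No p is given for the 6 differences, and no test of them was run. An exact two-sided sign-flip test over 2 preparations cannot give a p below 0.5. Taken between means in place of medians, the difference of PD from TB was 0.07. TD lay above PD by 0.12 in preparation I and by 0.19 in preparation II. TD is a single plate, TD01. In the mean of both preparations, 6 of the 217 plates of TA, TB and TC with at least 80 scored tiles had a higher median.

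PD and TD differed from TB in opposite ways at the upper end of the scores. The 90th percentile of PD was 1.23 in I and 0.98 in II, and that of TB was 1.39 in I and 1.15 in II. The 90th percentile of TD was 1.59 in I and 1.42 in II, above TB in both. In the mean of both preparations, 25 of the 217 plates had a higher 90th percentile than TD01. At the lower end both PD and TD stood above TB. The 10th percentile was -0.24 in I and -0.30 in II for PD, -0.23 in I and -0.15 in II for TD, and -0.39 in I and -0.40 in II for TB. Against TB, PD was thus higher at the 10th percentile and the median only, and TD at all 3 levels. Against TA and TC the 90th percentile of PD was higher too, by 0.17 ± 0.074 and 0.22 ± 0.058 (SD, n = 2).

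Calls for single tiles came from limma, fitted over all 21716 tiles with the mean of both preparations tested against 0 (two-sided, Benjamini-Hochberg adjusted p under 0.05). All tiles shared 1 spread in that fit, so a tile was called when its mean lay more than about 0.31 from 0. Over all tiles 31.6% were called higher and 25% lower. In PD 150 of 316 tiles (47.5%) were called higher, 22 (6.96%) lower and 144 in neither direction. In TD 58 of 96 tiles (60.4%) were called higher, 5 (5.21%) lower and 33 in neither direction. In TB, by comparison, 38.7% were called higher and 14.05% lower. These splits rest on the zero. On the deposited scores with no centring, 4 tiles of PD were called higher and 257 lower, and 2 tiles of TD higher and 63 lower. Shares over all tiles were not taken without centring, so these counts do not compare the sets with the array.

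A simple size count gave another picture of the upper end. The mean score was at least 1 at 38 tiles of PD (12.03%), against 11.9% of all tiles. It was at least 1 at 26 tiles of TD (27.1%). TD is a single plate, and 9 of the 217 TA, TB and TC plates had a larger share, up to 40.2% on TB80. The share in PD was thus close to that of the array, although PD held a larger share of tiles called higher. In TB the share was 15.6%, in TA 8.81% and in TC 8.42%. No tile of PD or TD scored -1 or less (0 of 412), a size that 0.327% of all tiles reached, and the lowest mean score was -0.74. With a minimum size of 0.5, 103 tiles of PD (32.6%) and 44 tiles of TD (45.8%) were high, where 23.9% of all tiles were. At -0.5 or less there were 5 tiles of PD (1.58%) and 2 of TD (2.08%), where 11.2% of all tiles were.

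The plates of PD were unlike each other. Plate PD02 had a median score of 0.60 in preparation I and 0.55 in II. PD01 had 0.17 in I and 0.14 in II, and PD03 had 0.14 in I and 0.12 in II. The short plate PD04 had -0.08 in I and -0.09 in II over its 29 tiles. Without PD02 the other 220 tiles of PD had a median of 0.14 in I and 0.12 in II, level with TB. Of these tiles 82 (37.3%) were called higher and 22 (10%) lower, against 31.6% and 25% of all tiles. PD02 was set apart after its values were seen.

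**Figure D2:**
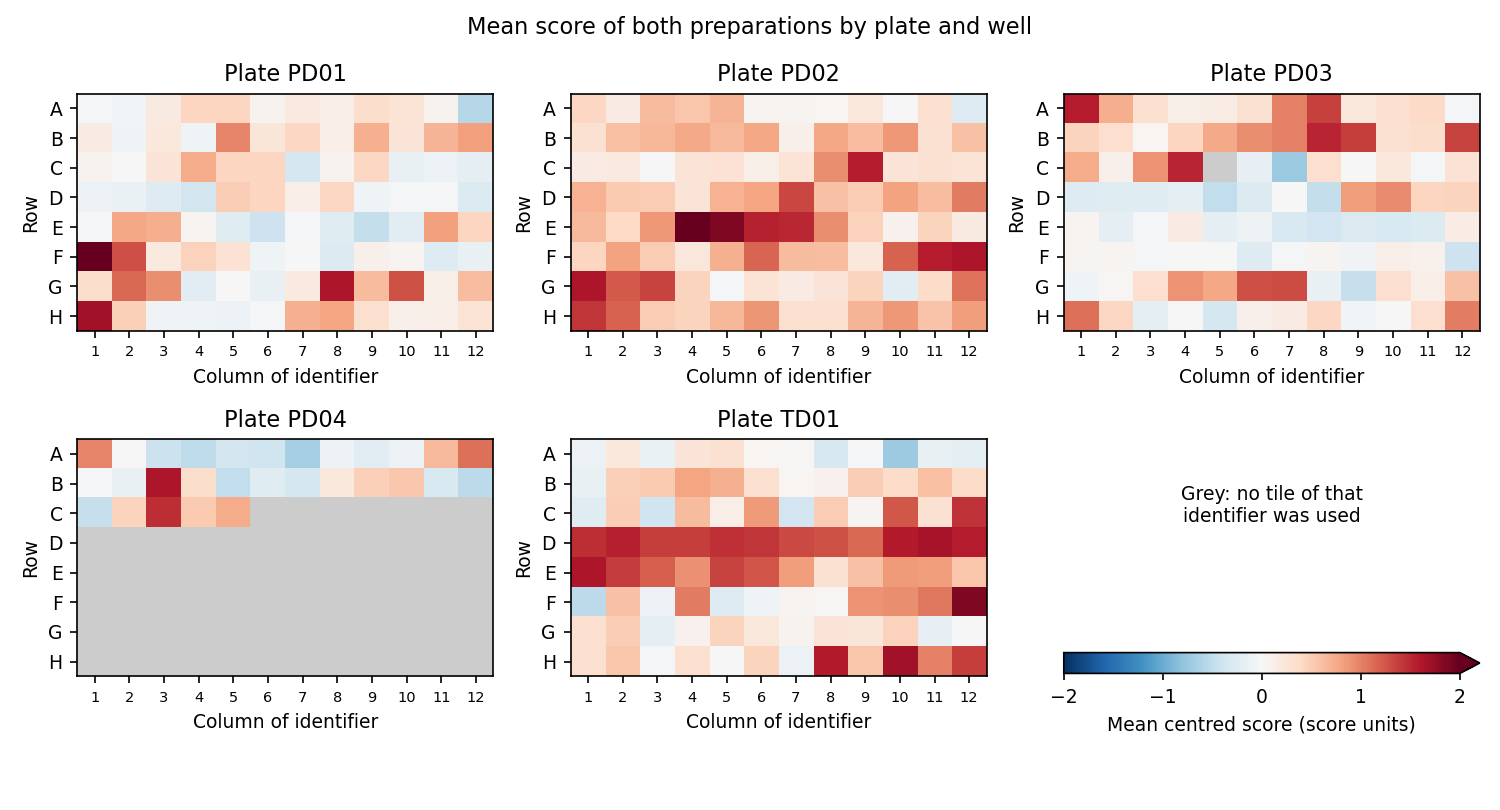
Mean score of both preparations (colour, score units) at each well of the identifier, with rows A to H down and columns 1 to 12 across, for the 5 plates of PD and TD. PD02 is on the red side of the scale at all but 3 tiles, though only faintly in much of rows A and C. PD03 is mostly pale in rows D to F, and TD01 has a solid red band along row D.

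On PD02 68 of 96 tiles (70.8%) were called higher by limma and 0 lower. The count of lower tiles was also 0 at an unadjusted p under 0.05 and with a mean-dependent variance in limma, and 3 tiles had a mean below 0. Of the 217 plates of TA, TB and TC with at least 80 scored tiles, 2 had a higher median than PD02. None of the 217 had a larger share of tiles called higher, the largest being 69.8% on TB70, and every one had at least 1.04% called lower. The 10th percentile of PD02 was 0.11, above that of each of those plates, which ran from -0.84 to -0.05. This held in preparation I (0.09 on PD02, at most -0.08 on the other plates) and in preparation II (0.15 on PD02, at most 0.03 on the others). Its tiles at 1 or more, 17 of 96 (17.7%), were fewer than on 49 of the 217 plates. PD02 thus stood out by its scarcity of low scores and less by its high ones. Its spread across tiles was narrow, with an SD of 0.47 against a median of 0.58 over the 217 plates.

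Plates PD01 and PD03 lay in the upper middle of the array, with 81 and 85 of the 217 plates above them in median score. PD01 had 6 tiles (6.25%) at 1 or more, and 34 (35.4%) called higher. PD03 had 12 tiles (12.6%) at 1 or more, and 37 (38.9%) called higher. The share called higher was 31.6% over all tiles. It was larger than on PD01 on 97 of the 217 plates and larger than on PD03 on 78. On PD03 the tiles at 1 or more lay in rows A, B, C, G and H, while rows D, E and F had medians of -0.22, -0.18 and -0.01 in the mean of both preparations. PD04 had the largest share of low tiles in the set: 10 of its 29 tiles (34.5%) were called lower and 11 (37.9%) higher. Over all tiles 25% were called lower, and 46 of the 217 plates had a larger share called lower than PD04.

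The highest tile of PD was PD01F01, with 2.88 in preparation I and 2.23 in preparation II. Its mean was 2.55 ± 0.46 (SD, n = 2). The tile before it had 0.43 and the tile after it 1.29. Of the 217 plates, 4 held a tile with a higher mean score. PD02E04 followed with 2.348 in I and 1.86 in II (mean 2.10 ± 0.35). It opened a stretch of 4 tiles, PD02E04 to PD02E07, that scored from 1.51 to 2.10 and averaged 1.82 in I and 1.69 in II. The limma adjusted p was 4.44e-69 for PD01F01 and 1.08e-47 for PD02E04, values that rest on the spread shared by all tiles.

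At the lower end PD03C07 scored -0.78 in I and -0.69 in II, with a mean of -0.74 ± 0.064. Both its neighbours were closer to the median, at -0.16 and 0.34. PD04A07 scored -0.54 in I and -0.79 in II, with a mean of -0.66 ± 0.18. Both passed limma's threshold, with adjusted p of 9.29e-07 for PD03C07 and 1.12e-05 for PD04A07. Neither passed when limma's treat test asked for a difference beyond 0.5 (adjusted p 0.24 and 0.53).

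The longest run of PD tiles at 1 or more was PD02F10 to PD02G03. Over its 6 tiles the score was 1.57 ± 0.36 in I and 1.29 ± 0.079 in II (mean and SD across tiles). It began and ended sharply, with 0.21 before it and 0.44 after it. In all, the 38 tiles of PD at 1 or more fell into 23 runs, of which 16 were single tiles, against 570 of 1254 runs over the whole array. Of the 38 tiles, 42.1% lay in stretches of at least 3 tiles, against 49.4% of the tiles at 1 or more over the whole array.

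TD was dominated by a plateau. From TD01C12 to TD01E03, 16 consecutive tiles all had a mean score of at least 1. They ranged from 1.15 to 1.65, with a score of 1.48 ± 0.19 in I and 1.38 ± 0.22 in II (mean and SD across tiles). In preparation I all 16 were at 1 or more. In preparation II the last, TD01E03, had 0.83. The tile before the plateau, TD01C11, had 0.31, and the tile after it, TD01E04, had 0.91.

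The first tile of the plateau, TD01C12, scored 1.504 in I and 1.37 in II (mean 1.44 ± 0.092, limma adjusted p = 4.3e-23). The last, TD01E03, scored 1.57 in I and 0.83 in II (mean 1.20 ± 0.52, limma adjusted p = 1.93e-16) and had the largest difference in favour of I in TD. The whole of row D belonged to the plateau, with a median of 1.501 in I and 1.43 in II. Only 1 run on the array was longer, at 20 tiles in TB, and 6 runs in all reached 10 tiles. In the mean of both preparations the TD plateau had the lowest average of these 6 runs, at 1.43, against 1.44 to 1.72. Its SD across tiles was 0.146, next to 0.151 in the TB run from TB95G12 to TB95H12 and 0.244 to 0.293 in the other 4. In preparation II that TB run had the smaller SD, at 0.141, against 0.217 in the TD plateau. Across the 16 tiles of the TD plateau, Pearson's r between preparations was 0.02. The plateau's SD in the mean of both lay below its SD in I, 0.193, and in II.

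**Figure D3:**
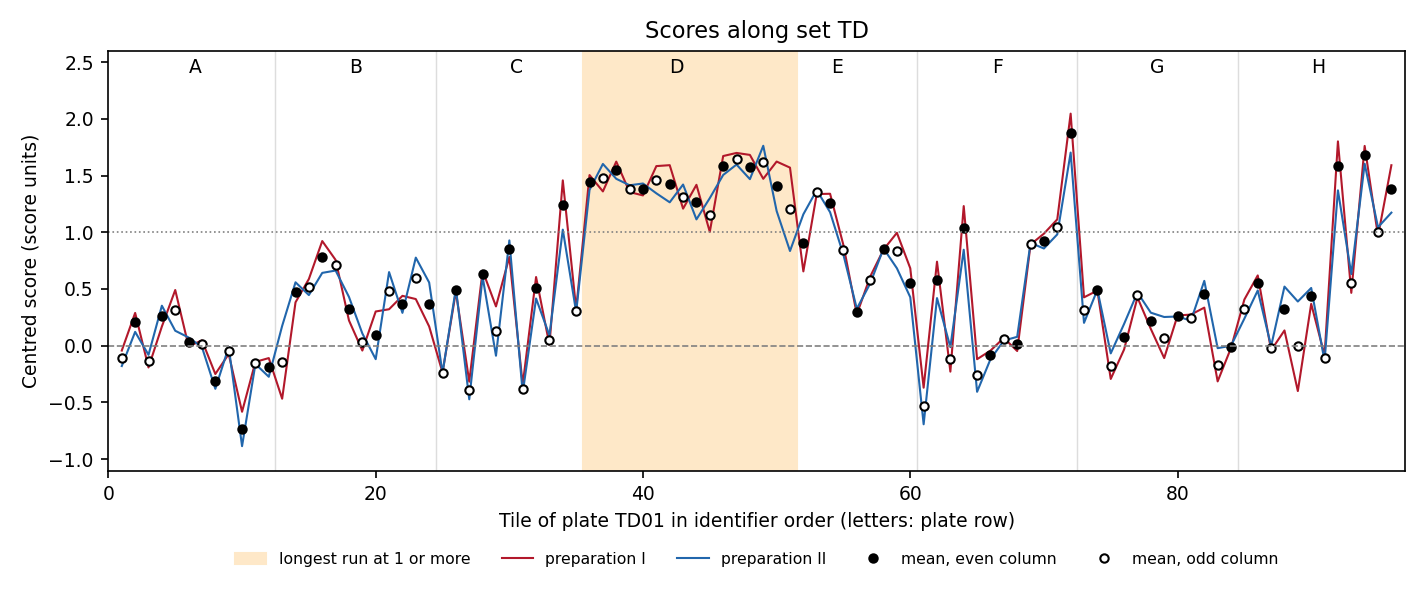
Centred score (y axis, score units) along the 96 tiles of plate TD01 in identifier order (x axis), in preparation I (red line) and II (blue line). Points are the mean of both, filled for even and open for odd columns, and the shaded band is the 16-tile plateau from TD01C12 to TD01E03. In row C the filled points all lie above the open ones.

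Of the 26 TD tiles at 1 or more, 16 lay in this plateau, which was itself picked by these scores. Without its 16 tiles, 10 of the other 80 tiles of TD (12.5%) were at 1 or more, a share that taking out tiles at 1 or more lowers by construction. Their median was 0.32 in I and 0.34 in II, and 42 of them (52.5%) were called higher by limma and 5 (6.25%) lower. Over all tiles 31.6% were called higher and 25% lower. All 16 tiles taken out were called higher, so leaving them out also lowers the median and the share called higher by construction. The median of the 80 tiles was still above those of TB, at 0.14 and 0.12.

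Besides the plateau, the highest tiles of TD stood on rows F and H. TD01F12 scored 2.05 in I and 1.70 in II, with a mean of 1.87 ± 0.24 (limma adjusted p = 3.2e-38). The tile before it had 1.05 and the first tile of row G 0.31. TD01H10 scored 1.76 in I and 1.60 in II, with a mean of 1.68 ± 0.11 (limma adjusted p = 4.19e-31). It began a run of 3 tiles that ended with the last well of the plate. The lowest tiles were TD01A10, with -0.58 in I and -0.89 in II (mean -0.73 ± 0.21, limma adjusted p = 1.02e-06), and TD01F01, with -0.37 in I and -0.69 in II (mean -0.53 ± 0.23, limma adjusted p = 0.00052).

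Neighbouring tiles in PD were alike, over the set as a whole by less than in TB, TA or TC, though not on every plate. Pearson's r between a tile and its next identifier was 0.56 over 314 pairs, and r with the tile after the next was 0.27 over 313 pairs. These values were 0.63 and 0.32 in TB, 0.69 and 0.46 in TA, and 0.71 and 0.54 in TC. Values over a whole set also hold differences in level between its plates. On PD01 r with the next tile was 0.37, and 199 of the 217 plates had a larger value. On PD02 and PD03 it was 0.60 and 0.58, near the median of 0.60 over those plates. The short plate PD04 had 0.36 over 28 pairs. The tiles share their arrays and neighbours may share sequence, so these correlations are descriptions across tiles. At the 3 plate boundaries of PD, too few for a statement on likeness, PD01H12 and PD02A01 had 0.27 and 0.42, PD02H12 and PD03A01 had 0.84 and 1.57, and PD03H12 and PD04A01 had 1.02 and 0.98.

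In TD the order of the 2 values was turned. A TD tile correlated with the next tile with r = 0.56 over 95 pairs, and with the tile after the next with r = 0.69 over 94 pairs. In preparation I the values were 0.52 and 0.65, and in preparation II 0.56 and 0.68. At 3 tiles the correlation was 0.39 and at 4 tiles 0.48. Outside the plateau it was 0.28 with the next tile and 0.50 with the tile after the next. Of the 217 plates of TA, TB and TC with at least 80 tiles, 1 (TA68) had a larger correlation with the second tile than with the first, by 0.00058, against 0.13 on TD01. The median difference over those plates was -0.30. Plates PD01, PD02 and PD03 had differences of -0.27, -0.29 and -0.34, near that median.

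**Figure D4:**
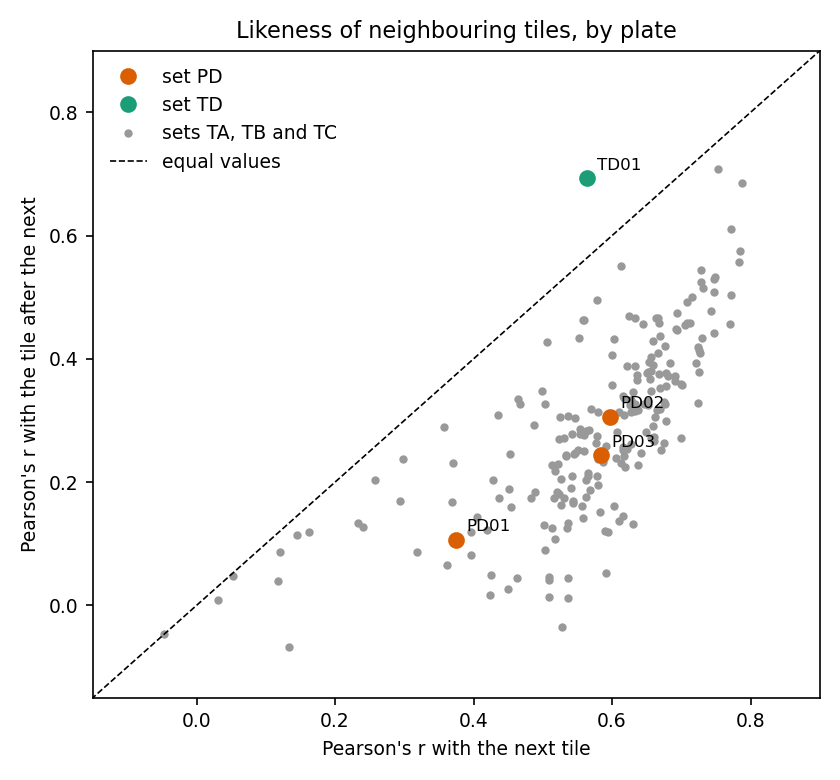
Pearson's r of a tile's mean score with the next tile (x axis) and with the tile after the next (y axis), 1 point per plate with at least 80 scored tiles, for PD (orange), TD (green) and TA, TB and TC (grey). TD01 lies above the dashed line of equal values, at 0.56 and 0.69, and the PD plates lie below it among the other plates.

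The alternation followed even and odd columns on TD01, mainly in rows C, F and H. The mean score of even columns exceeded that of odd columns by 0.31 in preparation I and by 0.22 in preparation II. In the mean of both preparations the difference was 0.26. In preparation I the largest even-over-odd difference among the 217 plates was 0.215, on TA74. In preparation II TA66 came level with TD01, at 0.2178 against 0.2180. In the mean of both the largest on those plates was 0.206, on TA66. Their median was 0.01 in I and -0.03 in II. In the opposite direction, 2 plates had a larger difference in preparation II. Over the plate, even columns of TD01 averaged 0.72 in I and 0.64 in II, and odd columns 0.41 in I and 0.42 in II.

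Rows of TD01 differed in how far they alternated. In row C the 6 even tiles scored from 0.49 to 1.44 and the 6 odd tiles from -0.39 to 0.31, so that the columns did not overlap. They did not overlap in preparation I alone either (0.48 to 1.504 in even columns, -0.34 to 0.35 in odd columns), nor in preparation II alone (0.42 to 1.37 in even columns, -0.47 to 0.30 in odd columns). Row C was picked after its values were seen. Such ranges were not taken on other plates, so how often a row of the array splits in this way is not known. Even columns exceeded odd ones by 0.54 in row F and by 0.71 in row H, with overlap. In row H, for example, TD01H07 to TD01H10 had -0.11, 1.59, 0.55 and 1.68 in turn, tiles that were chosen after their values were seen. In rows B, D and G even columns were higher by 0.03, 0.06 and 0.13. In rows A and E odd columns were the higher ones, by 0.10 and 0.19. On TD01 4 of 8 rows had higher even columns in both preparations, the same count as on PD03. On PD01, PD02 and PD03 the difference of even from odd columns was -0.08, -0.01 and 0.06.

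Over each set as a whole, both preparations gave a similar profile. Pearson's r between preparations was 0.91 across the 316 tiles of PD and 0.92 across the 96 tiles of TD, where it was 0.92 in TB and 0.91 in TA and TC. Without the 5% of tiles at each end it was 0.86 in PD and 0.90 in TD. Within the 16 tiles of the TD plateau, which were picked by these scores, it was 0.02. The SD across tiles of I minus II was 0.24 in PD, 0.26 in TD and 0.27 in TB. I and II lay over 0.5 apart at 15 tiles of PD (4.75%) and 4 tiles of TD (4.17%), against 7.2% of all tiles. In TD 27 tiles reached 1 in I or II, and 22 of them (81.5%) did so in both. In PD these numbers were 49 and 30 (61.2%), and over all tiles 3083 and 2059 (66.8%). In PD 48 tiles were at 1 or more in I and 31 in II, and over all tiles 2950 were in I and 2192 in II. In TD the counts were 25 in I and 24 in II.

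**Figure D5:**
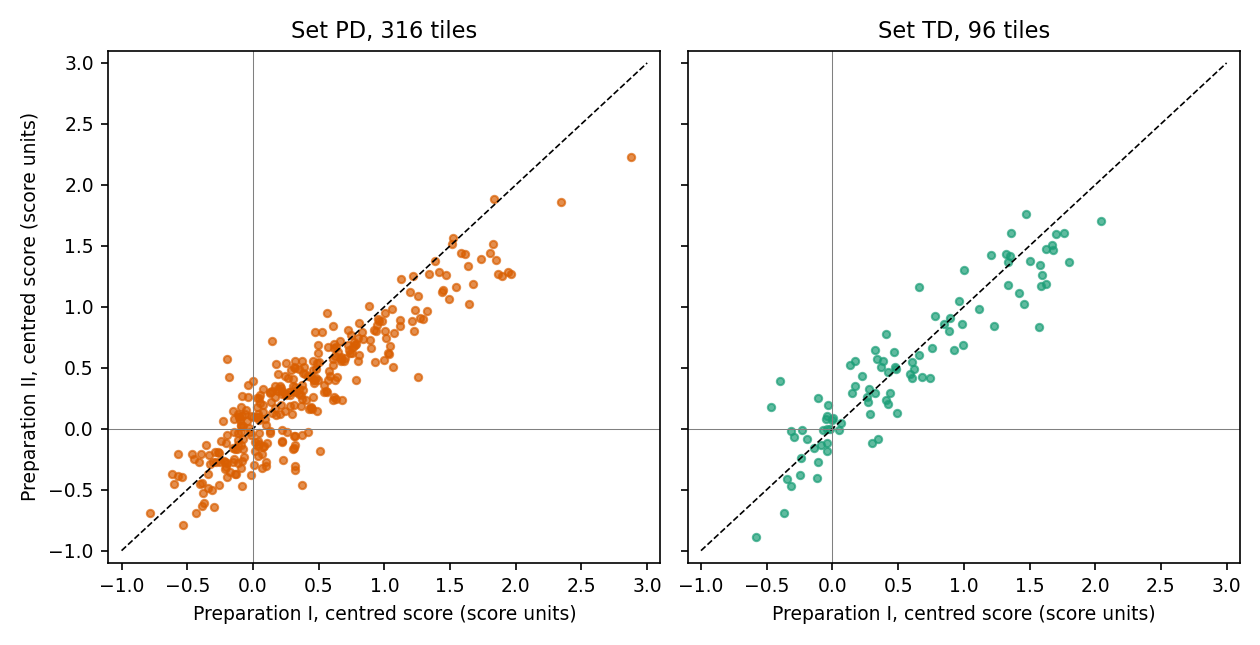
Centred score in preparation II (y axis) against preparation I (x axis), in score units, for each tile of PD (left) and TD (right). The dashed line marks equal scores. Points follow the line, with Pearson's r of 0.91 in PD and 0.92 in TD. The high PD tiles PD01F01 and PD02E04 fall below it, and PD02E05 lies just above it.

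A few tiles changed sides between the preparations. PD02G05 had 0.37 in I and -0.46 in II, the largest difference in favour of I in PD. PD02E12 had -0.20 in I and 0.57 in II, the largest in favour of II. In TD the largest difference in favour of II was at TD01H05, with -0.40 in I and 0.39 in II. None of these 3 tiles passed limma's threshold, with adjusted p of 0.81 for PD02G05, 0.26 for PD02E12 and 0.98 for TD01H05. Whether the preparations differ at a single tile could not be tested, since each gave 1 distinct score per tile.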

How the data were processed

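The deposited table gives a signed score per feature and array. No source used here gives how the authors made these scores: background correction, normalization, log base, direction and merging of the dye-swap arrays are unknown. Of 21800 features, 21716 tiles of sets PD, TD, TA, TB and TC have a score. The identical columns of each dye-swap pair were averaged, and each preparation was centred on its median over all tiles. No filter on weak spots was possible, and the number of arrays limits the precision. limma 3.58.1 in R 4.3.3 (lmFit, eBayes) tested the mean of both preparations against 0 over all tiles, with a shared spread of 0.20 score units per preparation. The step was also run on simulated, independent normal values with that same spread. Neighbouring tiles of the array are correlated, so that run does not test the calls made here. Counts, quantiles, runs and correlations used Python with pandas 2.3.3 and numpy 2.4.6. A run is a stretch of consecutive identifiers (plate, then row, then column) at 1 or more. Named tiles follow a rule: in each set the 2 highest, the 2 lowest, the largest difference between preparations in each direction, and the ends of the longest run. The rule for the sets uses identifiers alone, but the sets and tests were picked with earlier results of these data known. Alternatives changed the centring, scale, variance model, threshold, sign, tile order and preparations used.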

Additional observations from a re-analysis of the deposited data

How the results depend on the processing

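The direction of the score is unknown, no test between tile sets was run with 2 preparations, and spot brightness was not used. No paired analysis was possible because there is only 1 group. With all signs turned, PD had 22 tiles called higher by limma and 150 lower, and TD 5 higher and 58 lower. The size counts became 0 tiles at 1 or more in both sets, with 38 in PD and 26 in TD at -1 or less. The differences of medians became -0.39, -0.17 and -0.49 for PD against TA, TB and TC, and -0.54, -0.32 and -0.64 for TD. The called named tiles became -2.55 (PD01F01), -2.10 (PD02E04), 0.74 (PD03C07), 0.66 (PD04A07), -1.18 (PD02F10), -1.35 (PD02G03), -1.87 (TD01F12), -1.68 (TD01H10), 0.73 (TD01A10), 0.53 (TD01F01), -1.20 (TD01E03) and -1.44 (TD01C12), and the uncalled ones 0.043 (PD02G05), -0.186 (PD02E12) and 0.0050 (TD01H05).

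Without centring, limma called 4 tiles of PD higher and 257 lower, and 2 tiles of TD higher and 63 lower. PD02F10 moved to -0.038, TD01E03 to -0.014 and PD02E12 to -1.03. With the mode as zero, 6 tiles of PD and 2 of TD were called lower, PD02G05 moved to 0.11 and TD01H05 to 0.15. With TA, TB and TC as the zero TD01H05 moved to 0.0012. With the treat test 52 tiles of PD and 32 of TD were called higher and 0 lower (1 in each set at an unadjusted p under 0.05). At an adjusted p under 0.01, 2 tiles of TD were called lower. Shares of all tiles called were not taken under these other zeros, the treat test or that threshold. The counts called there do not compare PD or TD with the array. Scores of at least 0.5 were found at 103 tiles of PD and 44 of TD, and scores of -0.5 or less at 5 and 2. Means in place of medians gave 0.31, 0.068 and 0.38 for PD against TA, TB and TC, and 0.26 for TD against TB.

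A single preparation gave 31 to 48 tiles of PD and 24 to 25 tiles of TD at 1 or more. It gave plate medians of 0.14 to 0.17 (PD01), 0.55 to 0.60 (PD02), 0.12 to 0.14 (PD03) and -0.091 to -0.076 (PD04). The lowest plate median of PD, -0.10, became 0.13 when PD04, the 1 plate with under 48 scored wells, was left out. When PD lost 5% of its tiles at each end, its correlation between preparations was 0.86. The correlation with the next tile was 0.52 to 0.56 in PD and in TD with 1 preparation. With the tile after the next it was 0.24 to 0.27 in PD and 0.65 to 0.68 in TD. Column order gave 0.13 and 0.11 in PD, and 0.074 and -0.0030 in TD. Plate medians subtracted gave 0.50 and 0.17 in PD. Chosen after seeing the data, leaving out PD02 gave 82 tiles of PD called higher and 21 at 1 or more. Leaving out the TD plateau gave 10 tiles of TD at 1 or more and correlations of 0.28 and 0.50. The causes were not tested. Of 141 values for sets and plates, 85 kept their direction and stayed near the reported value. Among 120 tested values for the 15 named tiles, 91 changed neither direction nor call. Some of these outcomes were fixed in advance, so the counts are no measure of robustness. Differences of set medians cannot change with another zero. Correlations in TD, which has 1 plate, cannot change when its plate median is subtracted, and turning all signs only mirrors the values. A single preparation, which allows no call, kept the direction in 27 of 30 values. It spanned -0.46 to 0.37 at PD02G05, -0.20 to 0.57 at PD02E12 and -0.40 to 0.39 at TD01H05.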
